A study of Mus musculus with 6 samples.

Results

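The Sall genes Sall1, Sall2, Sall3 and Sall4 are the 4 mouse members of the Spalt family of zinc-finger proteins, and they were examined as places where SALL4 itself sits on DNA. The members were the 4 genes by name, of 21887 protein-coding genes of the gene table, and every SALL4 interval in the gene body or within 200 kb on either side was taken. These windows held 83 of 55058 intervals of wild-type replicate 1, 78 of 48295 of wild-type replicate 2, 0 of 34 of knockout replicate 1 and 0 of 39 of knockout replicate 2. All 4 libraries were made by CUT&RUN, in which an antibody in permeabilised cells directs a nuclease to release the DNA around its target. The cells were mouse embryonic stem cells grown in 2i + LIF, a medium with kinase inhibitors and a cytokine that keeps them undifferentiated. The genotype Sall4F/F, in which part or all of Sall4 is flanked by recombination sites and the gene is intact, is called wild type by the sample titles. Sall4-/- is the knockout, and each genotype is 1 line, with 2 SALL4 libraries. The lists give occupancy only, so neither the cell type's markers nor the expression of any Sall gene was measured, and whether SALL4 regulates its own gene was not tested.

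SALL proteins carry pairs of zinc fingers spread along the protein, and a cluster near the end of SALL4 binds AT-rich DNA. They bind the NuRD complex, a chromatin remodeller with histone deacetylases, through a motif at the start of the protein. SALL4 is a marker of undifferentiated stem cells and germ cells, SALL1 is best known for its part in kidney and limb development, SALL3 for cranial nerve development and SALL2 for the eye, and SALL1 is also made in embryonic stem cells.

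Sequence was read from RefSeq promoter windows of GRCm38.p6, which run from 250 bases before to 50 after a transcription start. Of the 4 Sall genes, 2 matched the promoter table, Sall1 with 3 windows and Sall2 with 2, so windows of Sall3 and Sall4 themselves were not counted. Of the 31 windows used in the neighbourhoods, 9 lay around Sall1, 12 around Sall2, 10 around Sall4 and 0 around Sall3, and 1 overlapped a SALL4 region present in both wild-type lists. Among all 32851 windows the share with such a region was 3.12%. Printed here are the 1 occupied window, that of the long non-coding RNA gene Gm42034 in the Sall1 neighbourhood, and 3 windows of Sall genes in which no list held an interval. Capitals mark, in the Gm42034 window (chr8:88840051-88840350, plus strand), the summits of both wild-type lists at bases 258 and 267 with 20 bases on either side. In the Sall windows (chr8:89044113-89044412, chr14:52316274-52316573 and chr14:52328621-52328920, all minus strand) capitals mark ATATT or its complement AATAT, a short AT-rich motif searched on both strands with overlaps allowed.
Gm42034: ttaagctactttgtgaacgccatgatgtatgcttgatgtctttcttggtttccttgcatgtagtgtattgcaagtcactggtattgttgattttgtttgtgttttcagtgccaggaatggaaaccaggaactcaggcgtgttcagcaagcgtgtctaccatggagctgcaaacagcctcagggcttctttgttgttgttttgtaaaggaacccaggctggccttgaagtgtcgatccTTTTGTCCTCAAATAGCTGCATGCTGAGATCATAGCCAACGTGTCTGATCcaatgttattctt
Sall1: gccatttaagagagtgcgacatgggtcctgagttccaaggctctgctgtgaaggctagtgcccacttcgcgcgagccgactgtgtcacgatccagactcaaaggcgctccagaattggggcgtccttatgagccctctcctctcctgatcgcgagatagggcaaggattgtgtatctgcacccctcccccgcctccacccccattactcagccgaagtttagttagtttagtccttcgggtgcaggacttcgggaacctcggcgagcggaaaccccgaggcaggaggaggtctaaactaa
Sall2 inner start: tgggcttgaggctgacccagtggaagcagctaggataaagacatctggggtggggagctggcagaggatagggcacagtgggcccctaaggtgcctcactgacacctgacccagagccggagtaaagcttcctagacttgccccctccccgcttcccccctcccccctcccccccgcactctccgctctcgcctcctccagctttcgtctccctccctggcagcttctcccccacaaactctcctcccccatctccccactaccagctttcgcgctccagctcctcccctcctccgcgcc
Sall2 outer start: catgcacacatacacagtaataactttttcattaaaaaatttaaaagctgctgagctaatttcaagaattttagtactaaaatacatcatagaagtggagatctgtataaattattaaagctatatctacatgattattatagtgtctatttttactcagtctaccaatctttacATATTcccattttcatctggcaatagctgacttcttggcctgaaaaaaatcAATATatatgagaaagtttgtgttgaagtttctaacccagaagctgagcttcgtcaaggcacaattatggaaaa
The occupied Gm42034 window was 56.0% A+T and held the motif 0 times. The outer Sall2 window was 69.7% A+T, a value reached by 1.15% of all windows, and held the motif 2 times, while no list held an interval in it. The other printed windows, at 42.7% (Sall1) and 35.0% (Sall2 inner), held it 0 times, as did the other Sall1 windows at 20.3% and 30.0%. The motif occurred in 25.3% of all windows and in 26.7% of the 1025 windows that overlapped a region, with median A+T contents of 47.3% and 47.7%. A match of letters is a description only and not a binding site.

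In the build of the files, GRCm38, Sall1 (gene ID 58198) lies on chromosome 8 at 89027242 to 89044162, and Sall2 (50524) on chromosome 14 at 52311177 to 52328670. Sall3 (20689) lies on chromosome 18 at 80966989 to 80987021, and Sall4 (99377) on chromosome 2 at 168748332 to 168767201. The 4 bodies have similar lengths of 16921, 17494, 20033 and 18870 bp, so their windows of 416.921 to 420.033 kb can be compared directly. All 4 genes are, as background, transcribed toward the lower-numbered end, so the higher-numbered end is where transcription starts.

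Intervals were seen at all 4 genes in wild type and at none in the knockout. Wild-type replicates 1 and 2 held 42 and 35 intervals around Sall1, 21 and 21 around Sall4, 11 and 13 around Sall3, and 9 and 9 around Sall2. The order was the same in both lists. The means were 38.5 ± 4.95 for Sall1, 21 ± 0 for Sall4, 12 ± 1.41 for Sall3 and 9 ± 0 for Sall2 (SD, n = 2). Each knockout list held 0 at each gene, so the genotypes did not overlap at 4 of 4 genes. The same holds for 92.3% of all coding genes, so it is not particular to the Sall genes. Summed over the 4 windows the difference was 6.35 on a log2 scale with 1 added to each number, a size that depends on the added 1 because the knockout lists are at 0. Exchanging genotype between libraries in every way (exact permutation, two-sided) gave p = 0.333, the lowest attainable with 2 against 2, so 0.05 is out of reach.

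Both knockout lists were smaller genome-wide and held no interval on any autosome, where all 4 Sall genes lie. The lowest −log10 p-value deposited was 6.61 and 7.12 in knockout replicates 1 and 2, against 3.55 and 3.60 in wild type. Of the wild-type intervals around the Sall genes, 54 of 83 (65.1%) and 53 of 78 (67.9%) reached 7.12, and would have met the knockout limit on that scale. In the whole wild-type lists 61.3% and 60.1% did, so reaching it is not particular to the Sall genes. By gene the 54 and 53 intervals were 23 and 23 at Sall1, 18 and 17 at Sall4, 7 and 7 at Sall3, and 6 and 6 at Sall2. For the intervals inside Sall4, absence of the protein and absence of the DNA cannot be told apart, because the extent of the deletion is not given in the sources used here. Every interval around the other genes lies on another chromosome.

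Agreement between the wild-type lists was like that of the whole lists. Found in the other list by an overlap of at least 1 bp were 62 of 83 intervals of replicate 1, which is 74.7% (exact 95% binomial interval 64.0 to 83.6), against 70.4% of its whole list. Of replicate 2 it was 62 of 78, which is 79.5% (68.8 to 87.8), against 79.3%. The interval bounds cover counting error only. Merged, these gave 62 regions present in both wild-type lists and in neither knockout list, called consensus regions from here on. They numbered 28 at Sall1, 17 at Sall4, 11 at Sall3 and 6 at Sall2, out of 37997 in the genome. Sall1 did not lead when −log10 q had to reach 10, with 10 regions beside 10 at Sall4, nor when fold enrichment had to reach 10, with 8 beside 8. Of the remaining intervals, found in 1 list only, 21 were in replicate 1 and 16 in replicate 2, with median fold enrichments of 4.55 and 4.76. Their summits rested on a median of 7 and 6 fragments, recovered from the fold enrichment and p-value, against 11.5 and 11 fragments for shared intervals. Intervals called once were thus weaker by their medians, but they reached fold enrichments of 8.25 and 7.65, above the medians of shared intervals, 7.60 in both lists. Sall1 had 14 and 7 of them, Sall3 0 and 2.

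**Figure D1:**
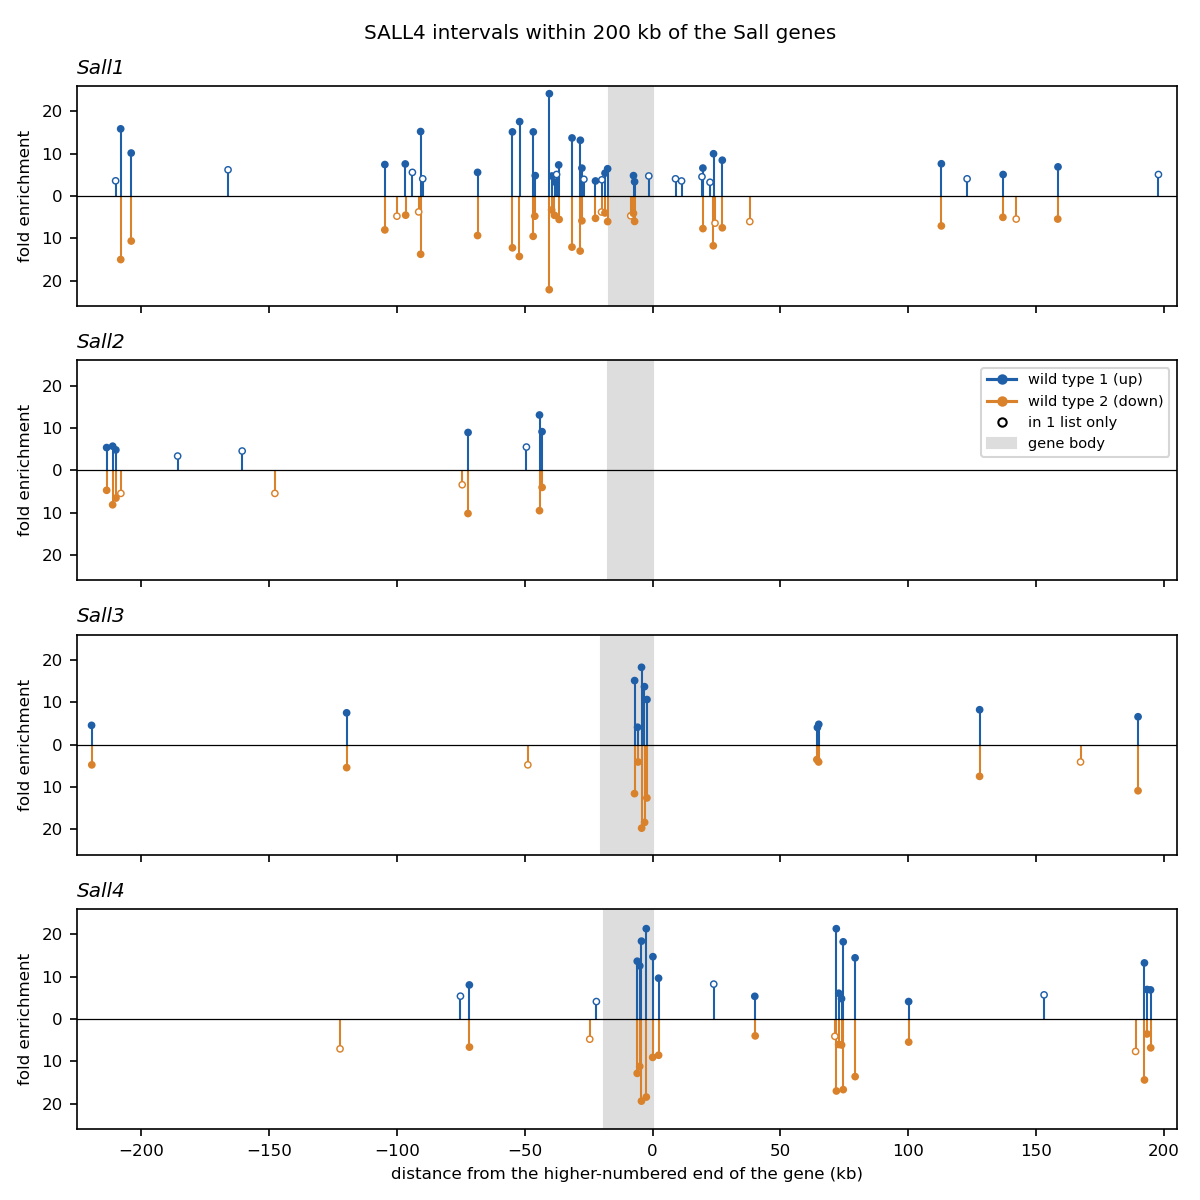
SALL4 intervals of the wild-type lists around each Sall gene, by distance in kb from the higher-numbered end of the gene (x) and the authors' fold enrichment (y, replicate 1 upward and replicate 2 downward, open symbols for intervals in 1 list only, grey for the gene body). Sall3 and Sall4 have their tallest bars inside the gene, Sall1 on the lower-numbered side, and Sall2 none within 10 kb and none on its higher-numbered side.

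Fold enrichment here is the authors' value, the summit's fragment pileup over a local background, and is used to rank regions within a list. Over the 62 consensus regions, which share libraries, rank correlation between the wild-type lists was 0.851 (Spearman's rho) and the correlation of log2 values 0.868 (Pearson's r), given as a description. The value was higher in replicate 1 for 42 of 62 regions. Summits of the lists lay a median of 22.5 bp apart and at most 321 bp, with 53 of 62 within 100 bp. The median of the regions' mean fold enrichments was 7.40 around the Sall genes and 6.84 over all consensus regions. A mean of at least 10 was reached by 24 of 62, or 38.7%, against 25.7% of all. These 24 were 10 regions at Sall1, 9 at Sall4, 4 at Sall3 and 1 at Sall2.

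**Figure D2:**
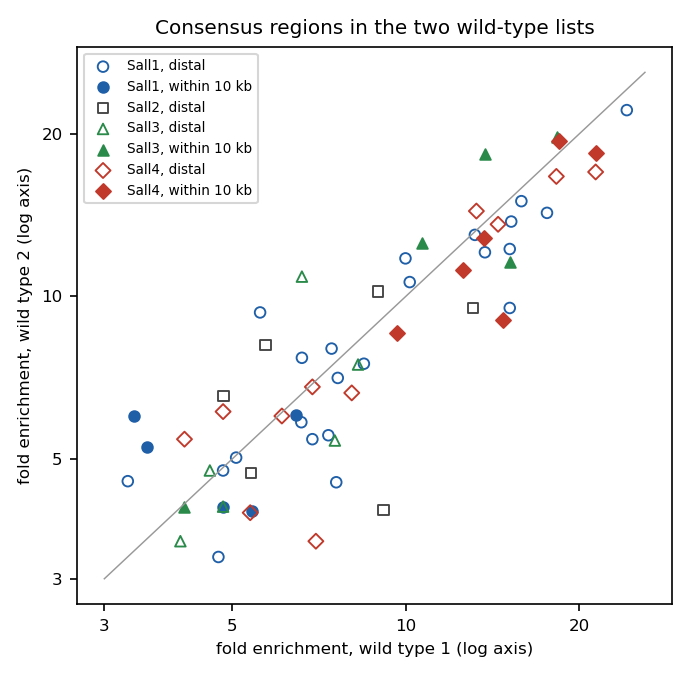
Fold enrichment of the 62 consensus regions in wild-type replicate 1 (x) and replicate 2 (y), both on log axes, with filled symbols within 10 kb of the gene, open symbols beyond it, and a line of equality. The filled Sall1 symbols all lie below 7 in both lists, whereas 9 filled symbols of Sall3 and Sall4 have means of 10 or more.

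At Sall4, the gene of the protein profiled, 6 consensus regions lay no farther than 10 kb and 5 of them touched the gene body. All 6 fell in 8.83 kb at the higher-numbered end, and the remaining part of the body held no consensus region. From there inward, the region at 168767099 to 168767536 straddles the end of the gene, with its summits just outside. Its fold enrichments were 14.7 in replicate 1 and 9.05 in replicate 2, from 28 and 17 fragments. The next, at 168764510 to 168764937, had 21.4 and 18.4, and its summits lay 2.44 kb inside. It was the strongest near the gene, and 4.89% of all consensus regions had a mean as high. The region at 168762647 to 168763054 followed with 18.4 and 19.4 at 4.33 kb inside. Those at 168762006 to 168762319 and 168760953 to 168761404 had 12.6 and 11.2, and 13.7 and 12.8, at 5.02 and 5.94 kb inside. Outside the gene, 2.11 kb from its end, the region at 168769313 to 168769780 had 9.65 and 8.55. The replicates differed by SDs of 0.592 to 4.02 fold-enrichment units, so the strongest pair, with means of 19.9 and 18.9, is not resolved in order. The straddling region also overlaps the long non-coding RNA gene Gm14261, whose annotated body crosses the same end.

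Sall3 showed the same arrangement with a smaller run. All 5 of its consensus regions within 10 kb were inside the gene, in 5.31 kb near the higher-numbered end, and covered 15.5% of the body, against 9.04% in Sall4. The strongest, at 80982178 to 80983230, had fold enrichments of 18.3 and 19.7 from 35 and 28 fragments, with its summits 4.59 kb from the end. The neighbouring region at 80983519 to 80984255 had 13.7 and 18.4. Regions at 80979639 to 80980244 and 80984629 to 80984948 had 15.2 and 11.6, and 10.7 and 12.6. Between them a weak region at 80981097 to 80981489 had 4.13 and 4.08 from 5 fragments in each list. The summits lay 2.19 to 7.04 kb inside the gene, which overlaps the span of the intragenic Sall4 summits. Unlike in Sall4, no region touched the end of the gene itself.

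Sall1 also had 5 such regions, all with means below 6.84, the median of all consensus regions. The pair inside the gene, at 89036566 to 89036818 and 89037035 to 89037223, had fold enrichments of 4.82 and 4.08, and 3.38 and 6.0, from 4 to 8 fragments. Their summits lay 7.52 and 7.06 kb from the higher-numbered end. The 3 others lay 0.541 to 5.28 kb beyond the lower-numbered end, where transcription stops. Of these the region at 89026457 to 89026701 was highest, with 6.44 and 6.04. Those at 89025449 to 89025662 and 89021692 to 89021961 had 5.41 and 4.0, and 3.56 and 5.27. The highest mean near Sall1 was 6.24, against 19.0 at Sall3 and 19.9 at Sall4, and no near region of Sall1 reached in either list the lowest value of the Sall4 regions, 8.55. Replicate 1 alone held an interval closer to the start of transcription, at 89042622 to 89042727, with 4.73 from 6 fragments. At Sall2 neither wild-type list held an interval in the gene or within 10 kb, and a count of 0 there allows up to 9.84 regions per 100 kb (upper end of the exact 95% Poisson interval).

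**Figure D3:**
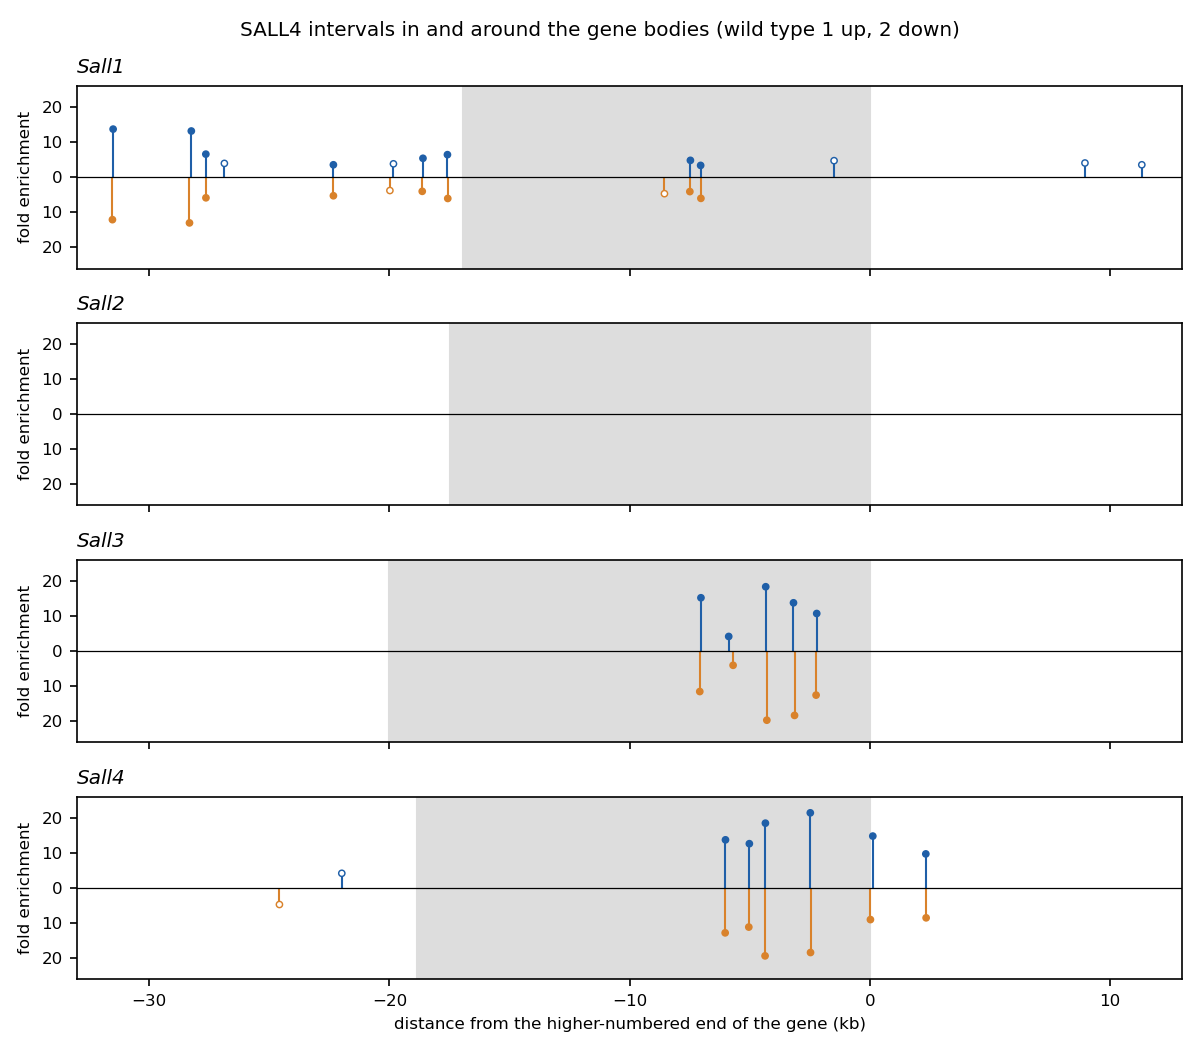
Wild-type intervals in and near the gene bodies (grey), by distance in kb from the higher-numbered end (x) and fold enrichment (y, replicate 1 upward, replicate 2 downward, open symbols for intervals in 1 list only). The strong intervals of Sall3 and Sall4 lie near that end, at most 7.04 kb inside it, those of Sall1 stay below 7 in the body and within 10 kb of it, and Sall2 has none there.

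Counted by gene, 3 of 4 Sall genes had a consensus region in the gene or within 10 kb, and over all coding genes it was 42.1%. Inside the gene it was 3 of 4 against 27.6%. Within 200 kb, and likewise between 10 and 200 kb, it was 4 of 4, against 91.8% and 90.5%, which says little of these genes. Sall1 lost all of its near regions when −log10 q or fold enrichment had to reach 10, which left 2 of 4 genes. By number of regions in the window, 2.69% of coding genes had as many as Sall1, 12.2% as many as Sall4, 28.5% as many as Sall3 and 55.1% as many as Sall2. A number within 10 kb as high as the 6 of Sall4 was found for 5.53% of coding genes, and one as high as the 5 of Sall1 and Sall3 for 7.47%. Per 100 kb the 3 genes had 15.4 (Sall4), 13.5 (Sall1) and 12.5 (Sall3) regions within 10 kb, values reached by 1.01%, 1.51% and 1.92% of coding genes, whose mean was 1.89. Their exact 95% Poisson intervals, 5.66 to 33.6, 4.40 to 31.6 and 4.05 to 29.1, overlap one another, and they too treat neighbouring regions as independent. By strength the order was another, since a highest mean fold enrichment as high as that of Sall4 was found for 4.66% of coding genes, of Sall3 for 5.43% and of Sall1 for 31.1%.

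**Figure D4:**
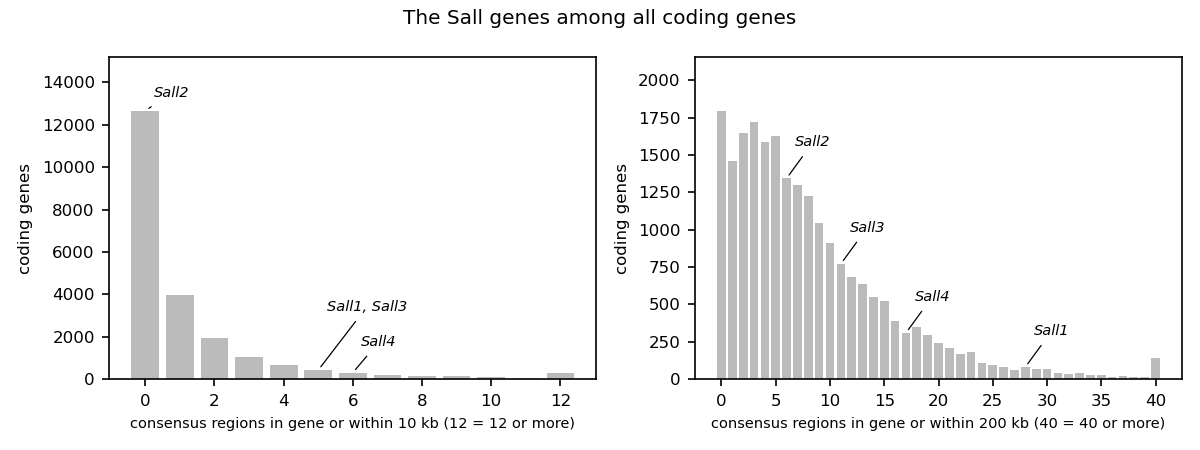
Number of coding genes (y) by how many consensus regions they had (x), counted to 10 kb on the left and to 200 kb on the right, with the last bar pooling all higher numbers. Sall2 sits in the bar at 0 on the left while Sall1 and Sall3 are at 5 and Sall4 at 6. On the right Sall1 is farthest out of the 4 at 28, a lead over Sall4 that is lost when −log10 q or fold enrichment has to reach 10.

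Beyond 10 kb lay 46 of the 62 consensus regions, or 74.2%, in 90.8% of the sequence. Their density was 3.03 per 100 kb (exact 95% Poisson interval 2.22 to 4.04), against 10.4 (5.97 to 17) within 10 kb. Over all coding genes 84.3% of pairs of a gene and a region within 200 kb were distal. Distal regions had a median mean fold enrichment of 7.25, and those within 10 kb of 11.75, with ranges of 3.79 to 23.2 and 4.11 to 19.9 that overlap. The near median was the higher one at Sall3 (13.4 against 5.57) and Sall4 (12.6 against 6.84). At Sall1 it was the lower one (4.69 against 7.72), and Sall2 had no near region. By gene the distal regions numbered 23 at Sall1, 11 at Sall4, 6 at Sall3 and 6 at Sall2. Per 100 kb this was 6.05 (3.84 to 9.08), 2.89 (1.45 to 5.18), 1.58 (0.579 to 3.44) and again 1.58. These intervals treat regions as independent, and 11 of the Sall1 regions lie in a single run, so they are too narrow and are no test between the genes. A distal density as high as at Sall1 was found for 2.84% of coding genes, as at Sall4 for 22.1%, and as at Sall2 and Sall3 for 48.6%. The genes were not tested against each other.

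The distal regions of Sall1 crowded on the side beyond the end of transcription. Of its 23 distal regions, 17 lay on the lower-numbered side and 6 on the higher, and 9 of its 10 regions with a mean of at least 10 were on the lower side. A run of 11 regions with gaps of at most 5 kb stretched over 27.7 kb at 88988897 to 89016573, with means from 3.92 to 23.2, and 6 of them reached 10. It held the strongest region of all 4 windows, at 89003233 to 89004298, 22.9 kb from the gene, with fold enrichments of 24.2 and 22.1 from 35 and 43 fragments. A mean as high was reached by 2.81% of all consensus regions, and this one was picked as the highest of 62. The next of the run, at 88991672 to 88992415, had 17.6 and 14.3. At 88835838 to 88836462, 191 kb away, the region with 15.9 and 15.0 had a neighbour at 88840087 to 88840404 that covers the start of Gm42034, whose sequence is printed above, with 10.2 and 10.6. On the higher-numbered side the strongest, at 89067615 to 89068367 in Gm3134, a long non-coding RNA gene also named Sall1os that overlaps the start of Sall1, had 9.99 and 11.8. Its pileup of 38 fragments was the highest of the 62 regions in replicate 1, while in replicate 2 its 34 lay below the 43 of the strongest region, and its local backgrounds of 2.90 and 1.98 fragments were above the lowest backgrounds of the lists, 0.452 and 0.471. Sall1 was the nearest coding gene for 21 of 23 distal regions, and Cyld for the other 2.

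At Sall4 a distal run of 5 regions in 7.85 kb lay 71.5 to 79.0 kb beyond the start of transcription, at 168838734 to 168846581, in no annotated gene. Its strongest region, at 168838734 to 168839354, had fold enrichments of 21.4 and 17 from 30 and 24 fragments, and that mean of 19.2 is next to the 19.9 of the strongest region inside Sall4. The region at 168841518 to 168841985 had 18.3 and 16.7, and that at 168846205 to 168846581 had 14.5 and 13.6. This run is closer to Zfp64, a zinc-finger gene, than to Sall4, by 46.8 to 54.0 kb against 71.5 to 79.0 kb. A run of 3 at 168959336 to 168962103 lay past the far side of Zfp64, and its strongest had 13.3 and 14.4. Zfp64 was thus the nearest coding gene for 9 of 11 distal regions, Atp9a for 1 and Sall4 itself for 1. That last region, at 168807053 to 168807443, had 5.37 and 3.98. Distance does not show which gene a site acts on, and none was measured.

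Around Sall3 the 6 distal regions had means of 3.79 to 8.74, all below 10, and 2 of them lay above the median of all consensus regions, 6.84. The strongest, at 81176667 to 81177058, lay 190 kb past the start of transcription and had 6.61 and 10.9, a spread between replicates of 3.02 (SD). Sall3 was the nearest coding gene for 4, and the other 2 lay in Atp9b. Sall3 and Sall4 thus each neighbour an Atp9 gene, of the P4 class of membrane ATPases, on their lower-numbered side, and a consensus region lay inside both Atp9 genes. At Atp9a it had 8.06 and 6.63, and at Atp9b the higher one had 7.53 and 5.41.

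Sall2 differed in having all of its regions inside other coding genes. Rpgrip1, a gene of the photoreceptor cilium, held 3 at 192 to 196 kb, Chd8, a chromatin remodeller, held 1 at 54.5 kb, and Tox4 held 2 at 25.5 and 26.5 kb. The strongest, in Tox4 at 52284204 to 52284668, had fold enrichments of 13.1 and 9.52. The Chd8 region at 52256328 to 52256630 had 8.95 and 10.2, and the highest in Rpgrip1, at 52117373 to 52117627, had 5.71 and 8.13. On the other side of Sall2, where transcription starts and the olfactory receptor genes Olfr1507 to Olfr1513 follow, neither list held any interval over 200 kb. Its 6 regions in the window equal the median of coding genes.

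**Figure D5:**
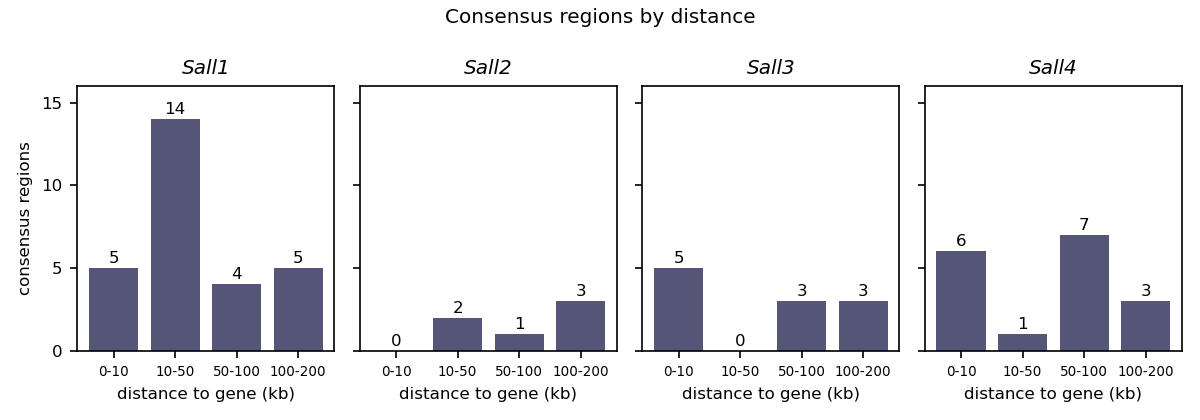
Number of consensus regions (y) by distance to the gene in kb (x, bins of unequal width) for each Sall gene. Sall1 has 14 regions between 10 and 50 kb, where Sall3 has 0, Sall4 has 1 and Sall2 has 2, and Sall4 has 7 between 50 and 100 kb.

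Coding genes with the most similar numbers were sought by the distance between 4 values, the log2 of the number plus 1 within 10 kb and beyond it in each wild-type list. Closest to Sall4 was Spire1, with 7 and 7 near and 15 and 13 distal intervals, followed by Kif3c and Strn3 (distances of 0.136, 0.193 and 0.197). Closest to Sall1 were Med14, Fam169a and Akap7 (0.165, 0.209 and 0.228), and among the closest to Sall3 were Aox2 and Ehf (0.245 and 0.263). For Sall2, with 0 near and 9 distal intervals in both lists, 79 genes had the same numbers, 2200002D01Rik, 4933411K16Rik and Apob being named by alphabetical order. No coding gene had the same 4 numbers as Sall1, Sall3 or Sall4.

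The Sall genes were set beside a list of regulators of pluripotency and germ-line stem cells and a list of NuRD subunits. Of the 8 regulators, 8 had a consensus region within 10 kb, and of the 11 subunits 6 had one, against 42.1% of all coding genes, a share near that of the subunits. The median numbers within 200 kb were 20.5 and 13, against 14 for the 4 Sall genes and 6 for coding genes. In the regulators they ran from 6 at Pou5f1, a core pluripotency factor, to 29 at Prdm14, a germ cell regulator, and Sall1, with 28, exceeded all but Prdm14. In NuRD they ran from 0 at Mta1 to 21 at Gatad2b. The knockout lists held 0 intervals in the windows of all 3 groups, which says little, as neither list held an interval on any autosome. By strength within 10 kb, the 19.9 of Sall4 lay below Tbx3 at 31.1, Esrrb at 27.0, Sox2 at 21.9, Rbbp7 at 22.9 and Mta3 at 22.9, and above the rest of both lists.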

How the data were processed

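SALL4 CUT&RUN peak lists of 4 libraries were used, and the 2 IgG samples were not analysed here. Groups and replicate numbers came from the titles, which do not say whether replicates are separate cultures, so p-values measure only the spread between these libraries, which may be technical. Per the submitters' processing notes the tools were Trim Galore 0.6.0, cutadapt 1.18, FastQC 0.11.8, BWA 0.7.17 and MACS2 2.1.1.20160309 on GRCm38 (mm10), with settings and control not given in the sources used here. Each list was called on 1 library. The deposited columns are a score (10 times the −log10 q-value without its decimals), a fold enrichment (ratio), a −log10 p-value, a −log10 q-value and a summit offset in bp.

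Overlapping lines of a list were merged, keeping the highest fold enrichment. Summit pileups and backgrounds were recovered from fold enrichment (pseudocount of 1) and Poisson p-value within 0.0001 in −log10 p for 100% of intervals, and read totals were not. The median summit pileup was 9 fragments for each wild-type library, 12 for knockout replicate 1 and 13 for knockout replicate 2, so single regions rest on few fragments. Consensus regions are wild-type intervals of both replicates joined by an overlap of at least 1 bp and free of knockout intervals. Proximal means the gene body plus 10 kb, and distal the rest of the 200 kb. Genes came from the GRCm38.p6 RefSeq table, which has no strand or exons.

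Named were all consensus regions within 10 kb of a Sall gene, the 3 strongest per window, the strongest distal one, 3 most similar genes per Sall gene (1 of these is not reported here), and extremes of 2 gene lists. Other regions and the runs were named after their values were seen. Members and lists were chosen with earlier results of these data known. Planned sequence analysis at summits was not run, as no genome was used here. The code was tested on simulated data. Python 3.11.15, numpy 2.4.6, pandas 2.3.3, scipy 1.17.1 and matplotlib 3.10.9 were used.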

Additional observations from a re-analysis of the deposited data

How the results depend on the processing

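Under the 11 alternatives the excess of wild-type over knockout intervals ran from 4.58 (fold enrichment of at least 10) to 6.59 (lines kept unmerged) on the log2 scale. Its direction could not turn under any of them, because both knockout lists hold 0 intervals in these windows, so the constant direction is no support. No test could pass 0.05. A paired version with the replicate number as block gave 6.35, and its exact p from flipping signs was 0.5, which 2 pairs cannot go below. Whether the numbers pair the libraries could not be tested, as both knockout values are 0.

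Stricter lists hold fewer intervals by construction. At a −log10 q of at least 10, consensus regions numbered 10 at Sall1, 2 at Sall2, 4 at Sall3 and 10 at Sall4, so Sall1 no longer led. At a fold enrichment of at least 10 they numbered 8, 0, 4 and 8. With windows of 50 kb Sall2 had 2, Sall3 5 and Sall4 7, and with 100 kb Sall2 had 3. The number of Sall genes with a near region fell from 3 to 2 under both stricter settings, losing Sall1. The share of intervals found in the other wild-type list, 77.1% on average, was 89.8% and 87.0% in the stricter lists, 67.2% with a reciprocal overlap of 50% and 65.9% with summits within 100 bp. The distal share, 74.2%, was 61.5% and 60.0% in the stricter lists, 66.7% and 51.5% with windows of 100 and 50 kb, 75.9% with the reciprocal overlap and 71.7% with close summits. It was 75.8% and 66.1% with distal set beyond 5 and 20 kb, and 74.2% to 75.6% with 1 replicate left out. The share found in the other list has no value once either wild-type list is dropped. With 1 library left out, consensus regions numbered 28 to 42 at Sall1, 6 to 9 at Sall2, 11 to 13 at Sall3 and 17 to 21 at Sall4, the higher ends being single wild-type lists. Narrower windows drop only distal sequence and other distal limits reassign the same regions, so those changes of the distal share follow from the definitions. Leaving out a knockout list could not change the consensus numbers, as neither list holds an autosomal interval. The causes of the other changes were not tested. Summits of few fragments limit the precision.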
